A study of Mus musculus with 7 samples.

Results

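The surface ectoderm and Grainyhead genes are 10 genes of embryonic epithelium, chosen by their symbols from the 25461 genes of the deposited table. They are the transcription factors Grhl1, Grhl2, Grhl3 and Trp63, the adhesion molecules Epcam and Cdh1, the splicing regulator Esrp1, and the keratins Krt8, Krt18 and Krt5. All 10 were found in the table, with a value in each of 7 whole embryos at E11.5, 3 SLMAP3 KO and 4 WT, all of the B6C3F1 strain. The KO embryos were homozygous for a deletion of exon 3 of Slmap, made in an earlier generation by crossing floxed mice with CMV-cre mice and then bred without cre, and the deletion was global rather than limited to the ectoderm. The WT embryos came from the same heterozygous crosses and carried no deleted allele. Tails had been taken for genotyping, so the tail bud and its ectoderm were missing from every library, and each library was 1 embryo.

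The surface ectoderm is the single-layered epithelium that covers the embryo and later gives rise to the epidermis, and its fusion over the neural folds completes the closure of the neural tube. Grainyhead-like factors bind promoters and enhancers of junction genes in this epithelium, and loss of Grhl2 or Grhl3 in mice is known to leave the neural tube open. The E11.5 embryos read here were older than those whose neural tubes the paper sectioned to examine closure. Trp63 (the mouse p63 gene) commits the ectoderm to a stratified epidermis whose basal cells exchange the keratin pair Krt8 and Krt18 for Krt5 and Krt14. Several of these genes are not particular to ectoderm: Epcam, Cdh1, Krt8, Krt18, Grhl2 and Esrp1 are also used by gut, lung, kidney and otic epithelium, and Krt8 and Krt18 by hepatoblasts.

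The values were FPKM (fragments scaled to transcript length and sequencing depth), which allow levels to be compared between genes. Low values lay on steps that put the sequencing depth of the embryos at 0.81 to 1.22 times their average, and the mean normalized counts in the authors' deposited table sum to 66829032 over all genes. Slmap, the targeted gene, ran from 16.0 to 19.6 FPKM among KO embryos and from 22.8 to 31.2 FPKM among WT embryos, and these values include the isoforms SLMAP1 and SLMAP2, which the deletion leaves intact. The embryos differed in ways that genotype does not follow. The liver product Afp was between 1.3 and 5.18 FPKM in the KO embryo KOAC10-5 and the WT embryos KOAC10-7 and KOAC10-2, and between 255.0 and 376.0 FPKM in the other 4 embryos. Xist was under 1 FPKM in 2 embryos, KOAC10-8 (KO) and KOAC9-1 (WT). The labels do not say what the KOAC numbers 8, 9 and 10 stand for.

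To show the sequence that these genes share, windows of 30 bases around the hexamer CACCTG are given for Grhl3, Epcam, Krt18 and Krt5, whose promoters hold it before the start of transcription. CACCTG is an E-box that the repressors of the Snail and Zeb families bind in epithelial genes. The promoters are those of RefSeq for GRCm38.p6, from 250 bases before to 50 bases after a start, and 6 of the 10 members had an entry, with 7 promoters in all, 2 of them for Grhl1. The hexamer or its reverse complement is in capitals and the strand is that of the gene.
Grhl3, chr4:135573634-135573663, minus strand: agttaacatctgCACCTGctgtggtctagc
Epcam, chr17:87635780-87635809, plus strand: gccagtagggccCACCTGctggaggaccgg
Epcam, chr17:87635948-87635977, plus strand: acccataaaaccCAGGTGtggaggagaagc
Krt18, chr15:102027990-102028019, plus strand: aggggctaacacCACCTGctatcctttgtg
Krt5, chr15:101713016-101713045, minus strand: cacaccactgtgCAGGTGtgctgggtgagc

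The hexamer was present on either strand in 5 of the 7 promoters, those of Grhl3, Epcam, Krt18 and Krt5 among them, and in 20.2% of all 32851 promoters in the table. It began 19 bases before the start in Grhl3, 187 and 19 bases before it in Epcam, 214 in Krt18 and 128 in Krt5. A further copy in Grhl3 began 9 bases after the start. Both promoters of Grhl1 lacked it. The Grainyhead motif AACCGGTT was searched on both strands as well and was in 0 of the 7 promoters and in 0.146% of all promoters. Its looser form AACCNGTT, of which AACCGGTT is one case, was in 0 of the 7 and in 2.09% of all. These counts describe the letters of 7 short windows and not the binding of a factor.

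At the level of transcripts, the 10 genes were present in all 7 embryos, and no member differed between KO and WT embryos beyond the spread between embryos. The genotypes were compared with limma on log2(FPKM + 1) over the 16095 genes that averaged at least 1 FPKM, with Benjamini-Hochberg adjustment over all of them. On this scale the differences of scarce transcripts come out smaller than they are. Of the 10 members, 9 were tested, and Grhl1, which averaged 0.664 FPKM, was not. An adjusted p under 0.05 was reached by 0 of the 9 in limma, where 0.0373% of all genes tested reached it. An unadjusted p under 0.05 was also reached by 0 of the 9, against 11.5% of all genes tested. The KO and WT values overlapped for all 9, whereas they did not overlap for 11.6% of all genes tested. The log2 fold change was positive for 8 of the 9, with Krt5 the exception, and for 53.1% of all genes tested. Its median was 0.08 over the members and 0.011 over all genes tested. Without KOAC10-8 the members' median was 0.02, and without KOAC10-2 it was 0.04. In whole embryos, fewer cells of a type cannot be told apart from less RNA per cell.

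**Figure D1:**
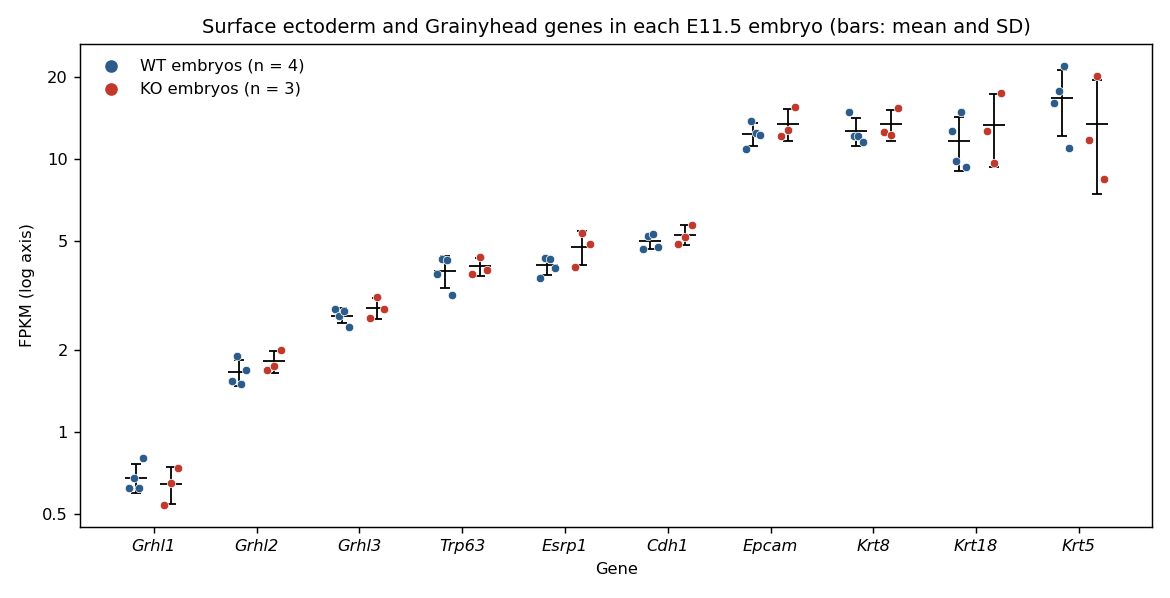
Each point is the FPKM of a gene (log axis) in a WT embryo (blue, n = 4) or a KO embryo (red, n = 3), and black bars give the mean and SD. Points of both genotypes overlap for each of the 10 genes, and levels run from 0.54 FPKM for Grhl1 to 21.9 FPKM for Krt5.

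The Grainyhead-like factors stood in the same order in each embryo, Grhl3 above Grhl2 above Grhl1, and their ranges did not overlap. Grhl3, the factor most closely tied to the late steps of neural tube closure and to the epidermal barrier, lies on chromosome 4 of GRCm38 from 135541888 to 135573630. Its levels were 2.62, 3.12 and 2.81 FPKM among KO embryos (KOAC8-6, KOAC10-5 and KOAC10-8), beside 2.81, 2.65, 2.77 and 2.43 FPKM among WT embryos (KOAC8-1, KOAC10-7, KOAC9-1 and KOAC10-2). The highest value was in a KO embryo and the lowest in a WT embryo. KO embryos averaged 2.85 ± 0.253 FPKM (SD, n = 3) and WT embryos 2.66 ± 0.172 FPKM (SD, n = 4), and the log2 fold change was 0.07 with a 95% interval from -0.12 to 0.26 (adjusted p = 0.750 from limma).

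Grhl2, the factor that drives Cdh1 and claudin genes in epithelia, lies on chromosome 15 from 37233036 to 37363569. Its levels were 1.69, 1.74 and 2.0 FPKM among KO embryos, beside 1.53, 1.9, 1.5 and 1.69 FPKM among WT embryos, in the same order of embryos. KOAC10-8 (KO) was highest and KOAC10-7 (WT) next to it. Its log2 fold change was 0.08 with a 95% interval from -0.13 to 0.29 (adjusted p = 0.744 from limma). An exon of Grhl2 is overlapped on the other strand by the antisense gene Gm16136, which was at 2.13 to 4.93 FPKM. The library kit does not mark strand, so reads from the overlap cannot be told apart, and 0.857% of the stretches of 50 bases in Grhl2 transcripts are shared between them.

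Grhl1, a factor of desmosome genes and hair follicles, lies on chromosome 12 from 24572283 to 24617391 and was the lowest of the members. Its levels were 0.54, 0.65 and 0.739 FPKM among KO embryos, beside 0.62, 0.676, 0.625 and 0.799 FPKM among WT embryos. The embryos of both genotypes were interleaved, and the means differed by less than either SD (exact permutation test, two-sided, p = 0.629). Its mean normalized count in the authors' deposited table was 142, the lowest of the members. The ratio of Grhl2 to Grhl1 was 2.12 to 3.12 over the embryos and that of Grhl3 to Grhl2 was 1.39 to 1.84. Between genotypes, an exact permutation test (two-sided) gave p = 0.114 and p = 0.80.

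Trp63, which specifies stratified epithelium and keeps its basal cells, lies on chromosome 16 from 25683763 to 25892102. Its levels were 3.8, 4.38 and 3.92 FPKM among KO embryos, beside 3.78, 4.28, 4.25 and 3.18 FPKM among WT embryos. Only the WT embryo KOAC10-2 stood somewhat apart, at the low end. Its log2 fold change was 0.05 with a 95% interval from -0.19 to 0.29 (adjusted p = 0.872 from limma), and without KOAC10-2 it was -0.02.

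Epcam and Cdh1, adhesion molecules on the lateral membranes of epithelial cells, varied in parallel. Epcam lies on chromosome 17 from 87635979 to 87651129 and was at 12.1, 12.8 and 15.5 FPKM among KO embryos, beside 10.9, 13.8, 12.4 and 12.2 FPKM among WT embryos. Cdh1 (E-cadherin) lies on chromosome 8 from 106603351 to 106670246 and was at 4.87, 5.17 and 5.74 FPKM among KO embryos, beside 4.68, 5.2, 5.32 and 4.76 FPKM among WT embryos. For both genes KOAC10-8 (KO) was highest and KOAC8-1 (WT) lowest. On the log2 scale the difference was 0.12 for Epcam (95% interval -0.13 to 0.36, adjusted p = 0.686 from limma). It was 0.06 for Cdh1 (95% interval -0.12 to 0.25, adjusted p = 0.781 from limma). Without KOAC10-8 these values were 0.02 and 0.01. Epcam was 2.33 to 2.7 times as high as Cdh1 in FPKM, a narrow ratio beside the 1.42-fold range of Epcam itself, and between genotypes the ratio gave p = 0.514 (exact permutation test, two-sided).

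Esrp1, which directs the epithelial choice of exons in Cd44, Fgfr2 and other transcripts, lies on chromosome 4 from 11331933 to 11386783. Its levels were 4.03, 5.36 and 4.88 FPKM among KO embryos, beside 3.67, 4.34, 4.28 and 3.98 FPKM among WT embryos. Both of the highest values were in KO embryos and the third KO embryo lay within the WT range. KO embryos averaged 4.76 ± 0.674 FPKM (SD, n = 3) and WT embryos 4.07 ± 0.311 FPKM (SD, n = 4). At 0.18, its log2 fold change was the highest of the members, and it had a standard error of 0.10 and a 95% interval from -0.06 to 0.41 (adjusted p = 0.532 from limma; exact permutation test, two-sided, p = 0.114). Without the KO embryo KOAC8-6 it was 0.27 at an unadjusted p = 0.0251 from limma, with an adjusted p = 0.506, and without KOAC10-5 it was 0.10. With embryo quality weights it was 0.11. Its paralog Esrp2, from the wider epithelial list, averaged 5.02 ± 0.583 FPKM (SD, n = 3) for KO and 4.07 ± 0.552 FPKM (SD, n = 4) for WT, at a log2 fold change of 0.25 (limma, adjusted p = 0.447).

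**Figure D2:**
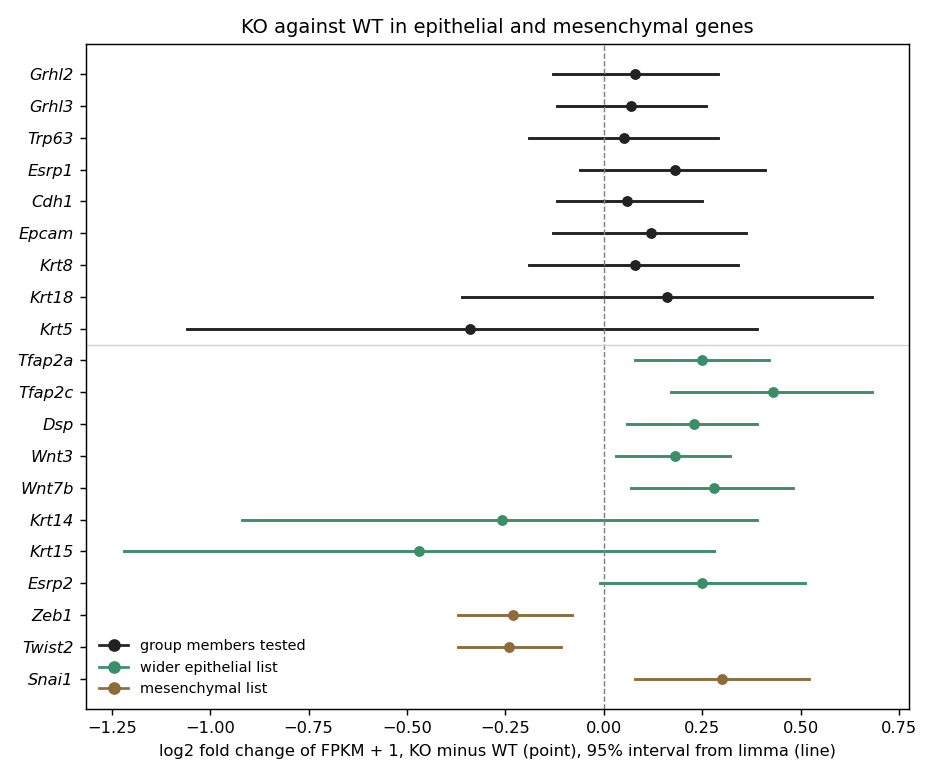
Points are log2 fold changes of FPKM + 1 (KO minus WT, horizontal axis) and lines their 95% intervals from limma, for the 9 members tested (black) and for genes of the wider epithelial (green) and mesenchymal (brown) lists. All 9 intervals of the members include 0, and that of Krt5, from -1.06 to 0.39, is the widest of the 9.

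Krt8 and Krt18, the type II and type I keratins that pair in filaments of simple epithelium, lie 23698 bases apart on chromosome 15, Krt8 from 101996698 to 102004482 and Krt18 from 102028180 to 102032027. Krt8 was at 12.5, 12.2 and 15.4 FPKM among KO embryos, beside 14.8, 12.1, 12.1 and 11.5 FPKM among WT embryos. The high values of 1 KO and 1 WT embryo, KOAC10-8 and KOAC8-1, stood above the other 5. Krt18 was at 12.7, 9.68 and 17.5 FPKM among KO embryos, beside 12.6, 9.81, 14.9 and 9.3 FPKM among WT embryos. Levels of Krt18 fell into a low set of 3 embryos and a high set of 4, each with embryos of both genotypes. On the log2 scale the difference was 0.08 for Krt8 (95% interval -0.19 to 0.34, adjusted p = 0.814 from limma). It was 0.16 for Krt18 (95% interval -0.36 to 0.68, adjusted p = 0.80 from limma). Both were negative without the KO embryo KOAC10-8, at -0.02 and -0.04, and Krt18 was at 0.35 without KOAC10-5. The pseudogene Krt8-ps holds 26.9% of the stretches of 50 bases in Krt8 transcripts and was at most at 0.352 FPKM, and reads from these stretches could not be assigned to either gene with certainty.

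The low set of Krt18 was the set of embryos with little Afp. Krt18 was between 9.3 and 9.81 FPKM in the 3 embryos with Afp up to 5.18 FPKM and between 12.6 and 17.5 FPKM in the 4 embryos with Afp of 255.0 FPKM or more. Of the 10 members, Krt18 was the one whose values in these sets did not overlap. The share of all genes without overlap between these sets was not counted, so this cannot be set against a background. Krt8 averaged 11.9 FPKM in the 3 embryos and 13.7 FPKM in the 4, with overlapping values, and Epcam, Cdh1, Grhl3 and Trp63 averaged nearly the same in both. Of 10 hepatoblast markers, 9 were tested and 0 were called in limma, also at an unadjusted p under 0.05. Their summed level was 15.8 to 552.0 FPKM in KO and 6.4 to 819.0 FPKM in WT embryos. In the fit with genotype and Afp, Krt18 had a slope of 0.08 log2 units per log2 unit of Afp (standard error 0.02), and this slope was read from the fit after the values of Krt18 were seen. Its adjusted p = 0.259 in limma did not pass the threshold, which 0.683% of all genes tested did, Afp itself included. The log2 fold change of Krt18 between genotypes was 0.05 in that fit. The part of liver in the level of Krt18 was not tested otherwise.

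Krt5, the type II keratin of basal cells in stratified epithelium, lies on chromosome 15 from 101707070 to 101712898 and was the most variable member. Its levels were 11.7, 20.1 and 8.47 FPKM among KO embryos, beside 16.0, 17.8, 21.9 and 11.0 FPKM among WT embryos. The 2.59-fold range ran from a KO embryo to a WT embryo, and the second highest value was in a KO embryo. KO embryos averaged 13.4 ± 6.02 FPKM (SD, n = 3) and WT embryos 16.7 ± 4.54 FPKM (SD, n = 4). Its log2 fold change was -0.34, with a 95% interval from -1.06 to 0.39 (adjusted p = 0.689 from limma; exact permutation test, two-sided, p = 0.429). It was -0.65 without the KO embryo KOAC10-5 at an unadjusted p = 0.0483 from limma, with an adjusted p = 0.301, and -0.07 without the KO embryo KOAC10-8. Krt6a, whose transcripts hold 6.98% of the stretches of 50 bases in Krt5, was at most at 0.186 FPKM.

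Of the wider epithelial list, the basal keratins Krt14 and Krt15 varied with Krt5. Krt14, the type I partner of Krt5, ran from 6.38 to 14.3 FPKM among KO embryos and from 8.68 to 16.4 FPKM among WT embryos. The ratio of Krt5 to Krt14 stayed between 1.15 and 1.41 over the 7 embryos while Krt5 itself changed by 2.59-fold. Krt15, a further type I keratin of basal cells, was lowest in KOAC10-8 at 3.7 FPKM and highest in KOAC9-1 at 13.7 FPKM, as Krt5 and Krt14 were. Krt17 of the same list had its extremes elsewhere, lowest in KOAC10-2 at 0.564 FPKM and highest in KOAC10-5 at 2.79 FPKM. Krt14 and Krt17 were picked with their values in view. The ratio of Krt5 to Krt8 ran from 0.549 in the KO embryo KOAC10-8 to 1.81 in the WT embryo KOAC9-1 and overlapped between genotypes (exact permutation test, two-sided, p = 0.457). The ratio of Krt5 to Trp63 was 2.16 to 5.16 with its extremes in the same embryos (exact permutation test between genotypes, two-sided, p = 0.257). Both of these embryos had little Xist and much Afp, and the relation of these ratios to either measure was not tested.

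**Figure D3:**
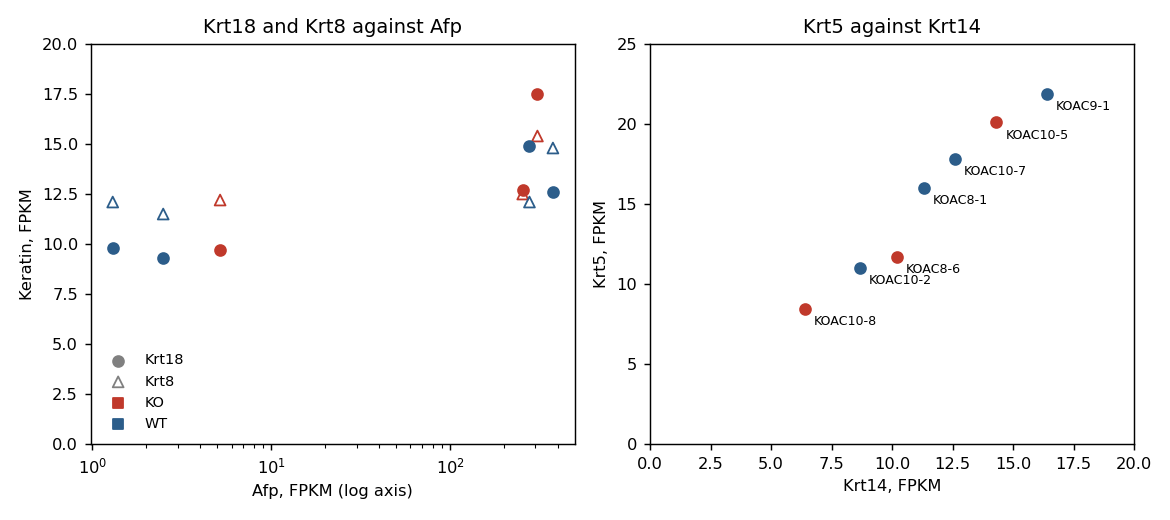
Left, Krt18 (filled circles) and Krt8 (open triangles) in FPKM against Afp in FPKM (log axis); right, Krt5 against Krt14 in FPKM, with each embryo named. KO embryos are red and WT embryos blue: Krt18 lies at 9.3 to 9.81 FPKM in the 3 embryos with little Afp and at 12.6 FPKM or above in the other 4, and Krt5 follows Krt14 along a line in embryos of both genotypes.

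Among the members, levels per length formed a step between the high genes Krt5, Krt8, Epcam and Krt18, with means of 15.3, 12.9, 12.8 and 12.4 FPKM, and the other 6. Neighbours within this high set did not differ beyond their spread, since Krt5 was above Krt8 in 4 of 7 embryos, Krt8 above Epcam in 2 and Epcam above Krt18 in 3. Krt18 was above Cdh1 in 7 of 7 embryos, with ranges that did not overlap. Cdh1, Esrp1 and Trp63 followed with means of 5.11, 4.36 and 3.94 FPKM. Cdh1 was above Esrp1 in 6 of 7 embryos and Esrp1 above Trp63 in 6 of 7, and the ranges of these neighbours overlapped. Trp63 was above Grhl3 in each embryo, without overlap. In the deposited table, 71.0% of all genes had a lower mean than Krt5 and 32.0% had a lower mean than Grhl1. The spread over the 7 embryos, as the SD in percent of the mean, was lowest for Cdh1 at 7.22% and Grhl3 at 7.85% and highest for Krt18 at 24.7% and Krt5 at 32.9%.

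Over the 7 embryos, 30 of the 36 pairs of tested members were positively correlated on the log2(FPKM + 1) scale, and 5 of the 6 negative pairs include Krt5. By Pearson's r the closest pair was Epcam and Cdh1, with a Pearson's r of 0.89 (exact permutation test, p = 0.00635, adjusted p = 0.175 over the 36 pairs) and a Spearman's rho of 0.86 (exact permutation test, p = 0.0238, adjusted p = 0.286). Without KOAC10-8 and KOAC8-1, the embryos farthest from the median of Epcam, r was 0.56, so the relation rests in part on these embryos. Next by this measure were Grhl2 and Epcam, with an r of 0.88 (exact permutation test, p = 0.00972, adjusted p = 0.175) and a rho of 0.79 (exact permutation test, p = 0.0480, adjusted p = 0.432), and with an r of 0.54 without the farthest embryos KOAC10-7 and KOAC10-8. By rank, Trp63 and Esrp1 and also Epcam and Esrp1 were as close as Epcam and Cdh1, each with a rho of 0.86 (exact permutation test, p = 0.0238, adjusted p = 0.286). Their r was 0.58 and 0.67 (exact permutation test, p = 0.174 and 0.101, adjusted p = 0.568 and 0.455), and 0.41 and 0.37 without the farthest embryos, KOAC10-2 and KOAC10-5 for the former and KOAC10-8 and KOAC8-1 for the latter. Krt8 and Krt18 had an r of 0.69 (exact permutation test, p = 0.0974, adjusted p = 0.455) and a rho of 0.68 (exact permutation test, p = 0.110, adjusted p = 0.462), and an r of 0.50 without KOAC10-8 and KOAC8-1. No pair had an adjusted p under 0.05 for Pearson's r, and 2 had an unadjusted p under 0.05. The points of a pair share their library and its depth.

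**Figure D4:**
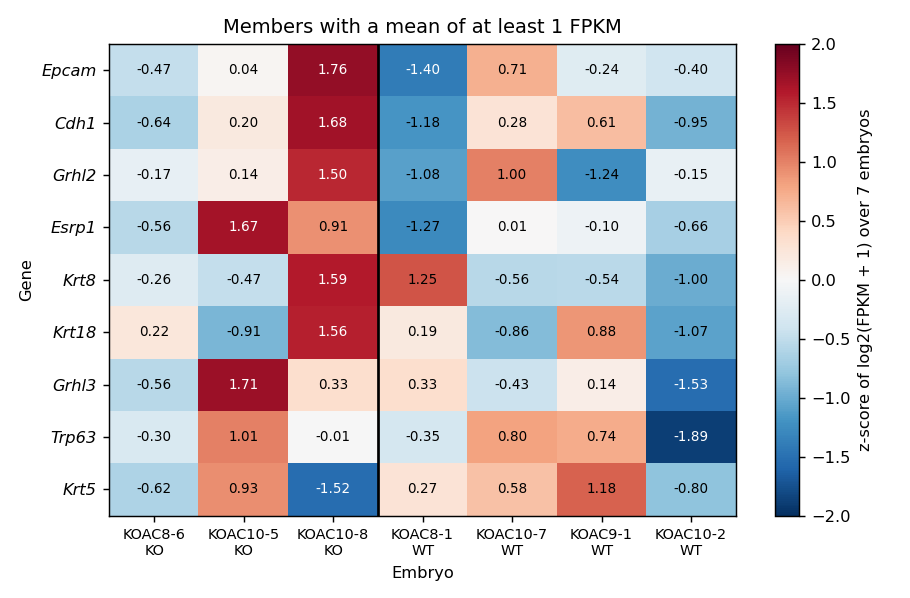
Each cell gives the z-score of log2(FPKM + 1) of a member (rows) in an embryo (columns, KO left of the line and WT right of it), scaled over the 7 embryos. KOAC10-8 is highest for Epcam, Cdh1, Grhl2, Krt8 and Krt18 and lowest for Krt5, with z-scores of 1.76, 1.68, 1.5, 1.59, 1.56 and -1.52.

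The KO embryo KOAC10-8 thus carried the highest values of 5 members at once and the lowest value of Krt5. Its FPKM summed over all genes was also the highest, at 861448 beside 770063 to 813357 in the others. Of the lists described below, the wider epithelial, mesenchymal and endoderm lists had their highest summed levels in KOAC10-8. The hepatoblast, erythroid, trophoblast and suprabasal lists did not. Vim alone gave 880 of the 1520 FPKM of the mesenchymal list in KOAC10-8, and the genes of that list did not rise together. Vim, Snai1, Twist1 and Cdh2 were highest in this embryo, whereas Cdh11, Fn1, Prrx1 and Pdgfra were lowest in it. The mean z-score of the 9 tested members was 0.87 in this embryo, 0.48 in KOAC10-5 and -0.37 in KOAC8-6, the other KO embryos. In the WT embryos it was -0.36 in KOAC8-1, 0.17 in KOAC10-7, 0.16 in KOAC9-1 and -0.94 in KOAC10-2, so that the embryos of the genotypes were interleaved. Within the embryos numbered KOAC10, 2 KO and 2 WT, the log2 fold changes were 0.41 for Krt18, 0.25 for Esrp1, 0.21 for Krt8, 0.17 for Grhl3 and -0.09 for Krt5. The single pair of KOAC8 embryos and the single KOAC9 embryo allow no such comparison. Of the KOAC10 embryos, only KOAC10-8 had much Afp, at 308.0 FPKM beside 1.3 to 5.18 FPKM in the others. Krt18 was at 17.5 FPKM in KOAC10-8 and at 9.68 FPKM in the KO embryo KOAC10-5, beside 9.81 and 9.3 FPKM in the WT embryos. The part of Afp in the differences within KOAC10 was not tested. Among the genes outside the lists, those most like this mean z-score over the 7 embryos were B9d1 (Pearson's r of 0.981), Cetn2 (0.978), Cfap97 (0.976), Znf41-ps (0.966) and Trmt2a (0.966), which were picked for this likeness from all genes tested.

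The wider epithelium was described with 62 genes of junctions, desmosomes, hemidesmosomes, further keratins and ectodermal regulators, of which 61 were listed and 48 were tested. Of the 48, 0 had an adjusted p under 0.05 in limma, 5 had an unadjusted p under 0.05 and higher values in KO embryos, and 0 had one and lower values. This share of 10.4% is near the 11.5% of all genes tested. The log2 fold change was positive for 39 and negative for 9, with a median of 0.09 and a range from -0.47 for Krt15 to 0.43 for Tfap2c. Tfap2c and Tfap2a, AP-2 factors of surface ectoderm and neural crest, were 2 of the 5 genes. Tfap2c was at 6.68, 7.32 and 7.99 FPKM among KO embryos, beside 5.33, 5.42, 4.26 and 5.87 FPKM among WT embryos. Every KO embryo was above every WT embryo, while the adjusted p was 0.286 in limma. Tfap2a averaged 9.78 ± 0.658 FPKM (SD, n = 3) for KO and 8.04 ± 0.507 FPKM (SD, n = 4) for WT, also without overlap, at a log2 fold change of 0.25 (limma, adjusted p = 0.324). The other 3 were the desmosomal plaque gene Dsp (log2 fold change 0.23) and the Wnt ligands Wnt7b (0.28) and Wnt3 (0.18), each with KO values above the WT values. Wnt7b and Wnt3 are also expressed in the neural tube, and Tfap2a in neural crest, so these transcripts are not those of ectoderm alone.

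The repressors that bind the E-box shown above were read from a list of 12 mesenchymal genes, all tested, of which 0 had an adjusted p under 0.05 in limma. Zeb1, a repressor of Cdh1, Epcam and Esrp1 in mesenchymal cells, was at 53, 59.2 and 57.3 FPKM among KO embryos, beside 64.6, 70.6, 67.9 and 62.5 FPKM among WT embryos. Its values did not overlap, at a log2 fold change of -0.23 (limma, adjusted p = 0.307). Snai1 had the opposite sign and also no overlap, averaging 16.6 FPKM for KO and 13.2 FPKM for WT, at a log2 fold change of 0.30 (limma, adjusted p = 0.348). Zeb2 and Snai2 had log2 fold changes of -0.07 and -0.16 with overlapping values. Over the list, 1 gene had an unadjusted p under 0.05 and higher values in KO embryos and 4 had one and lower values, among them Twist2 and Pdgfra, together 41.7% of the 12 beside 11.5% of all genes tested, with a median log2 fold change of -0.07.

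Markers of other tissues were read beside the members. Of 8 suprabasal keratinocyte genes, 5 were listed and 2 averaged at least 1 FPKM, Krt10 and Lor. Krt1, Tgm1 and Tgm3 were listed at means of 0.889, 0.686 and 0.13 FPKM, and Flg, Ivl and Krtdap were not listed. Krt10, the keratin of suprabasal cells, was at 9.93 to 14.9 FPKM with a mean of 11.5 FPKM, near that of Krt18, and overlapped between genotypes. Lor, a cornified envelope gene, averaged 1.21 FPKM for KO and 1.81 FPKM for WT (adjusted p = 0.291 from limma). Trophoblast genes, whose tissue also expresses Krt8 and Krt18, averaged under 1 FPKM, and their summed level was 0.784 to 1.4 FPKM for KO and 0.845 to 1.53 FPKM for WT. Endoderm genes, whose tissue shares Epcam, Cdh1, Krt8, Krt18 and Grhl2, had a summed level of 32.6 to 38.7 FPKM for KO and 25.7 to 31.1 FPKM for WT, without overlap. Of its 12 genes 7 were tested, with 0 called after adjustment in limma and 3, namely Onecut1, Foxa2 and Shh, at an unadjusted p under 0.05, a share of 42.9% beside 11.5% of all genes tested. Genes of this list, Onecut1 and Shh among them, are also expressed in the neural tube, so its summed level is not that of endoderm alone. The part of these tissues in the levels of the members was not tested. Over 6 erythroid genes the median was -0.30 on the log2 scale, and it ran from -0.52 to 0.16 with an embryo left out, positive without KOAC10-5 alone. Of these genes 0 were called after adjustment in limma and 1 had an unadjusted p under 0.05, Kel at -0.64 (adjusted p = 0.286 from limma). This was 16.7% of the 6, beside 11.5% of all genes tested.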

How the data were processed

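Whole E11.5 embryos without tails, 3 SLMAP3 KO and 4 WT, were grouped by the genotype in their labels. The authors made TruSeq RNA v2 libraries and deposited FPKM values per gene and embryo, and per the labels Salmon, DESeq2 and MultiQC were used with the GRCm38 build; the annotation is not given in the sources used here. The deposited baseMean column, a mean signal of counts divided by size factors, was used only as the authors' mean per gene. The deposited log2 fold changes, their errors and the p-values and adjusted p-values are the authors' own comparison and were not used. All FPKM columns were mapped to an embryo.

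Genes that averaged at least 1 FPKM were fitted on the log2(FPKM + 1) scale by limma 3.58.1 under R 4.3.3, using lmFit and trended eBayes and genotype as the one term, with Benjamini-Hochberg adjustment at 0.05. Single values were compared by exact permutation over 35 splits, whose smallest two-sided p is 0.0286. Nothing in the labels says that embryos of a group came from separate litters. The steps were tested on simulated data. Positions and shared stretches of 50 bases came from GENCODE release M21 of GRCm38, promoters from RefSeq. Motifs were searched on both strands, and 1 promoter window is not reported here.

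The members and lists were chosen with earlier results of these data known. The genes named are all members, Slmap, Afp and Xist, and of each list those with an adjusted p under 0.05 or, failing that, up to 6 with an unadjusted p under 0.05 and no overlap between genotypes, with the highest and lowest fold change. Krt14, Krt17, Esrp2, Zeb2, Snai2, Krt6a and the antisense and pseudogenes were named after their values were seen, or for shared sequence below the 10% set in the rule. Alternatives were a pseudocount of 0.1, no filter, a minimum of 5 FPKM, size factors, quantile normalization, the KOAC number as a block, Afp or Xist as a covariate, embryo weights, and leaving out each embryo. The slope on Afp and the values of embryos with Afp above 200 FPKM were added after seeing the data.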

Additional observations from a re-analysis of the deposited data

How the results depend on the processing

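No member had an adjusted p under 0.05 in limma under any of the 16 alternatives of the model, and no tested gene of the wider epithelial list did. The number of members with an unadjusted p under 0.05 was 0 as reported and 0 to 1 with an embryo left out, Krt5 without KOAC10-5 and Esrp1 without KOAC8-6. The number of all genes called, 6 as reported, was 7 to 12 with an embryo left out, 12 without the WT embryo KOAC8-1, and 10 with Afp as a covariate. With an embryo left out, the log2 fold change ran from -0.02 to 0.09 for Trp63, lowest without KOAC10-2. It ran from -0.02 to 0.15 for Krt8 and from -0.04 to 0.35 for Krt18, both lowest without KOAC10-8. These 3 were the tested members that changed sign. Grhl1, which was not tested, ran from -0.07 to 0.01, highest without KOAC8-6, and changed sign as well. The labels do not say what the KOAC number stands for. With it as a block, in which the KOAC9 number holds a single WT embryo that does not enter the comparison, 0 members and 7 genes in all were called, and the log2 fold change was 0.28 for Krt18 and -0.20 for Krt5. In the 4 embryos with Afp above 200 FPKM the log2 fold change was -0.85 for Krt5 and -0.03 for Grhl3. The median log2 fold change was -0.07 for the mesenchymal list and -0.11 to -0.05 with an embryo left out, 0.25 for the endoderm list and 0.11 without a filter, and -0.24 for the suprabasal list and -0.34 with a pseudocount of 0.1, -0.03 without a filter and -0.13 at a minimum of 5 FPKM. The filters change which genes of a list enter its median, and the cause of the other changes was not tested. With an embryo left out, exact permutation tests cannot go below 0.0667 or 0.1. The intervals of all members rest on the same 3 and 4 embryos. Those of Krt18 and Krt5 were the widest, and these members also had the largest spread between embryos.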
